A study of Arabidopsis thaliana with 22 samples.

Results

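A set of 10 Arabidopsis thaliana genes that make, sense or answer salicylic acid was followed in leaf RNA sequencing of photorespiration mutants and wild type. They were taken by locus identifier from a count table of 25680 loci: EDS1 (AT3G48090) and PAD4 (AT3G52430), ICS1 (AT1G74710), SARD1 (AT1G73805) and CBP60G (AT5G26920), NPR1 (AT1G64280) and NIMIN1 (AT1G02450), and PR1 (AT2G14610), PR2 (AT3G57260) and PR5 (AT1G75040). All 10 were found in the table and all 10 passed the filter on low counts. The mutants were T-DNA insertion lines, 1 line per gene: hpr1-1 (peroxisomal hydroxypyruvate reductase), shm1-2 (mitochondrial serine hydroxymethyltransferase), glyk1-1 (glycerate kinase) and pglp1-1 (phosphoglycolate phosphatase), set against Wildtype plants. Every genotype was sampled after a move from high to low CO2 (LC, 0.038%) and in continuous high CO2 (HC, 1%), in each case 8 h after the light came on. There were 2 libraries of each mutant and 3 of the wild type at each CO2 level, 22 in all, called biological replicates in the design text, with nothing further on plants or pools. Plant age was given only as a growth stage, the same for all groups.

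Salicylic acid is a defence hormone. In leaves most of it is made in chloroplasts from chorismate by isochorismate synthase, and the lipase-like proteins EDS1 and PAD4 act upstream of that step in immunity and in responses to photo-oxidative stress. The transcription factors SARD1 and CBP60g bind the ICS1 promoter. The hormone is perceived by NPR1 and its relatives, and NPR1 with TGA factors switches on the pathogenesis-related genes PR1, PR2 and PR5, the usual transcript markers of a salicylic acid response.

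Summed counts were lowest in hpr1 LC replicate 1 (5.91 M, in units of 1e6) and highest in shm1 LC replicate 1 (194 M), so values of the shallow libraries rest on fewer reads. Each mutated gene was lower in its own mutant than in the wild type (HPR1 averaged 3.64 CPM in hpr1 LC and 458 CPM in wild-type LC, where CPM are counts per 1e6 after TMM normalisation). Leaf mesophyll markers (5 of 5 detected in every group) summed to 2610 to 5020 CPM in shm1 LC, 22700 to 24300 in glyk1 LC, 24900 to 25700 in hpr1 LC, 63100 to 74500 in pglp1 LC and 14100 to 64500 in wild-type LC. Epidermis markers (4 of 4 detected) summed to 45.6 to 48.3 CPM in shm1 LC, 82.4 to 91.9 in glyk1 LC, 94.7 to 101 in pglp1 LC and 106 to 112 in hpr1 LC, against 113 to 162 CPM in wild-type LC. Guard cell markers (5 of 5) summed to 82.2 to 85.6 CPM in shm1 LC, 65.8 to 89.0 in glyk1 LC, 58.6 to 63.0 in pglp1 LC and 34.4 to 42.4 in hpr1 LC, against 45.0 to 46.8 CPM in 2 wild-type LC libraries. Phloem markers (3 of 3) summed to 348 to 393 CPM in shm1 LC and 160 to 271 CPM in the other mutants in LC, against 179 to 334 CPM in wild-type LC. Their part in the results was not tested. Root and flower markers summed to at most 26.9 and 2.22 CPM. In wild-type LC replicate 3 a run of rows that covers EDS1, PAD4 and PR2 carries the counts of neighbouring rows, so these 3 genes have 2 wild-type LC values. RNA was taken from whole leaves, and fewer cells that express a gene and less RNA per cell cannot be told apart.

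The 250 bases before each annotated gene start (RefSeq annotation, TAIR10.1) were searched on both strands for GAAATTT, the core reported for CBP60g binding, for TGACG, the core of TGA factor sites, and for the W-box letters TTGACC and TTGACT bound by WRKY factors. GAAATTT was found in 1 of 10 members (ICS1, 2 copies) and in 12.5% of 27443 promoters of that length. TGACG was found in 1 of 10 (SARD1, 3 copies, of which a pair overlap on opposite strands) and in 18.6% of promoters. A W-box was found in 2 of 10 (EDS1 and PR5, 1 copy of TTGACT each) and in 28.4% of promoters. None of these counts stood above the share over all promoters. The upstream windows of ICS1 (chr1:28070045-28070294, plus strand), SARD1 (chr1:27749249-27749498, minus strand) and PR5 (chr1:28177420-28177669, plus strand) are shown because these genes stand for the synthesis step, its regulator and an output gene. They are written 5′ to 3′ on the strand of the gene, with the motif letters in capitals (a motif on the other strand appears as its reverse complement).
ICS1: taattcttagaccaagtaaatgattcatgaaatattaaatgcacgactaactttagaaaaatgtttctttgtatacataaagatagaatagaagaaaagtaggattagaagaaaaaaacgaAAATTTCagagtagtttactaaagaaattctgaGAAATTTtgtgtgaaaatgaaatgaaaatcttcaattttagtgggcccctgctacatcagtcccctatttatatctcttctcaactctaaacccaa
SARD1: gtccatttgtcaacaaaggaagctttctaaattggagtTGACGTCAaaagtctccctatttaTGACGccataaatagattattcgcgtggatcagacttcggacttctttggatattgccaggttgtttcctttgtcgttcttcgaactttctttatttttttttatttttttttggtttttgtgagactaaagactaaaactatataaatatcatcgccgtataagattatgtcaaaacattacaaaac
PR5: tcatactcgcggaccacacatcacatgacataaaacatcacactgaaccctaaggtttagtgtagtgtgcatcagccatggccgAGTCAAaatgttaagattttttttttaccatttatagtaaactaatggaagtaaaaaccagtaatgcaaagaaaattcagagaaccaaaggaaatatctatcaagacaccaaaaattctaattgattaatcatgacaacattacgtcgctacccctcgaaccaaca
A match of letters is a description of these windows and not a bound site.

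In high CO2 the wild type held the regulators at low levels and the output genes at high and very uneven levels. Compared per length with the deposited RPKM (reads scaled by locus length and library depth), PR2 stood at 672, 350 and 148 RPKM in the wild-type HC libraries, PR5 at 516, 329 and 178, and PR1 at 219, 8.65 and 38.8. NPR1 stood at 21.8, 19.8 and 17.2 RPKM, EDS1 at 28.9, 21.5 and 21.1, and ICS1 at 12.6, 6.17 and 4.70. Every wild-type HC value of PR2 and PR5 was above every value of NPR1, EDS1 and ICS1, whereas the values of PR1 ran through their range. Over all 22 libraries NPR1 varied least (29.3 to 158 CPM, 5.38-fold), ICS1 ran from 7.75 to 333 CPM (43.0-fold) and PR2 from 6.93 to 4650 CPM (671-fold, 21 libraries). PR1 ran from 0 to 771 CPM, 1640-fold over its lowest value above 0.

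**Figure D1:**
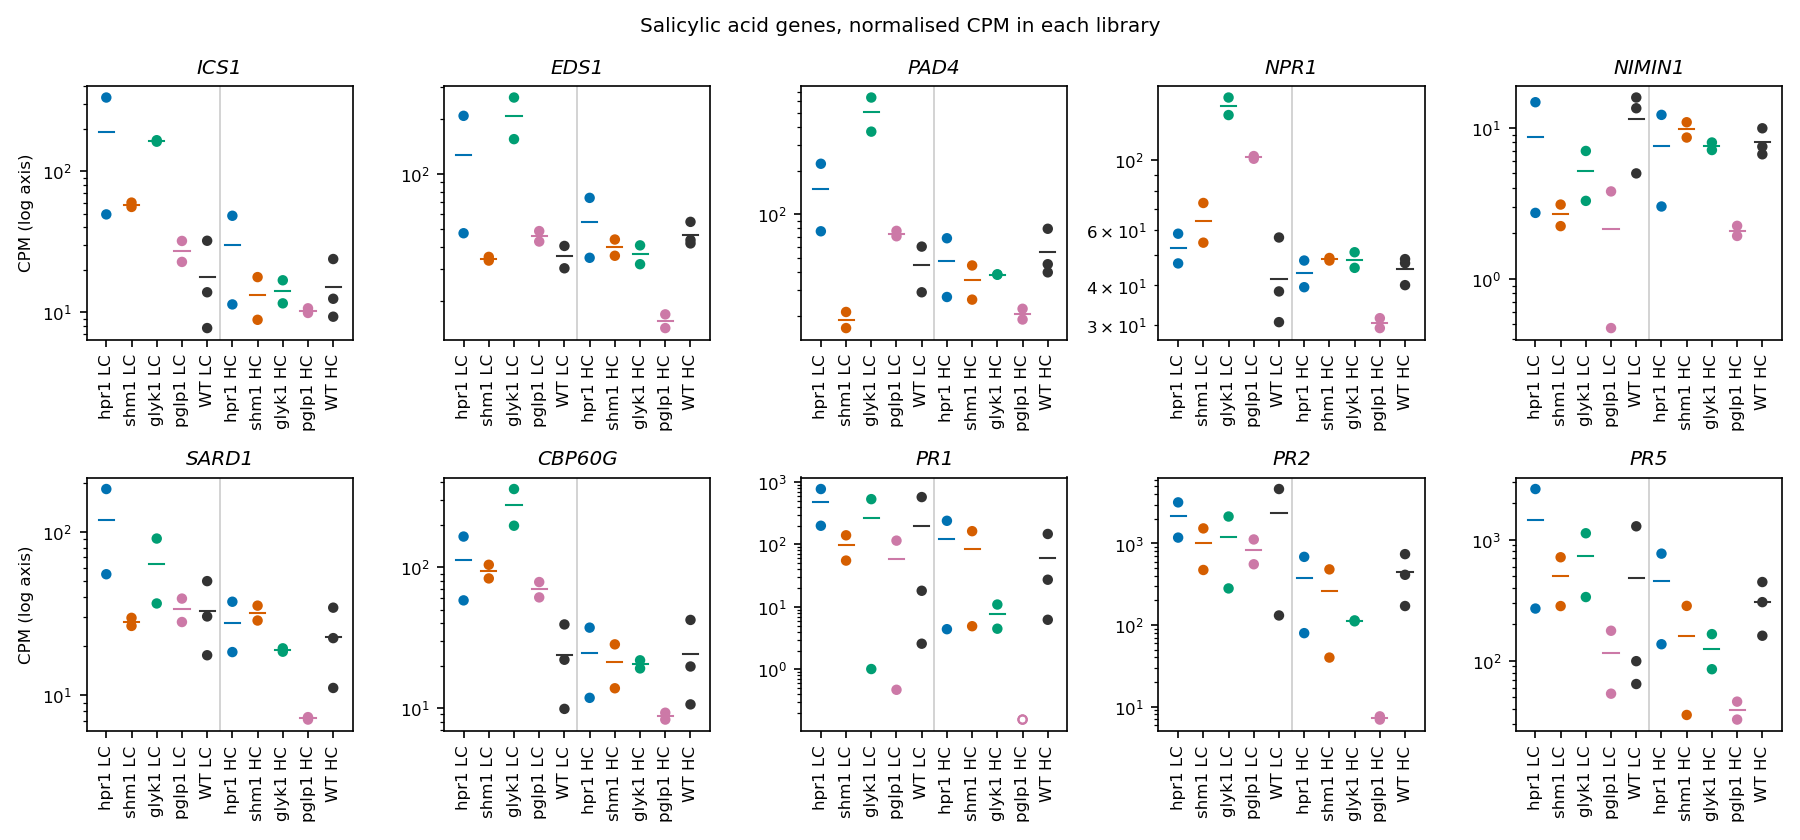
Normalised CPM (log axis) of the 10 genes in every library, by group, with LC groups left of the line and HC groups right of it; points are libraries, short bars are group means, and open circles mark 0 counts. Both glyk1 LC libraries stand above all wild-type LC libraries for ICS1, EDS1, PAD4, NPR1 and CBP60G, whereas PR1 runs from 1.01 to 531 CPM within glyk1 LC alone.

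In low CO2, glyk1 and shm1 each had 5 of 10 members called different from the wild type. Of all loci, 26.5% were called higher and 29.3% lower in glyk1, and 32.8% and 33.3% in shm1. Counted in either direction, neither 5 of 10 stood above the share over all loci. In glyk1 LC, ICS1, EDS1, PAD4, NPR1 and CBP60G were higher than in the wild type, from 3.54- to 11.7-fold, while SARD1, NIMIN1, PR1, PR2 and PR5 did not pass the test. In hpr1 LC only ICS1 passed. In shm1 LC, ICS1, CBP60G and NPR1 were higher and PAD4 and NIMIN1 lower. In pglp1 LC, NPR1 and CBP60G were higher and NIMIN1 lower. Calls are from edgeR's quasi-likelihood test at a Benjamini-Hochberg adjusted p under 0.05 over 20370 loci. With edgeR's unadjusted p under 0.05 the counts were 5 in hpr1, 5 in shm1, 5 in glyk1 and 3 in pglp1, and DESeq2 called 5, 5, 5 and 3. A call needed a smaller unadjusted p in hpr1, where fewer loci were called. CBP60G in hpr1 did not pass at an unadjusted p of 0.00323, while PAD4 in shm1 passed at 0.032. The shares over all loci are no background for the unadjusted or DESeq2 counts. The 4 comparisons share their wild-type libraries.

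The counts of members stand beside a background that differs widely between mutants. In glyk1 LC against wild-type LC 5 of 10 members were called higher and 0 lower, where 26.5% of all loci were called higher and 29.3% lower. In shm1 LC 3 were called higher and 2 lower, beside 32.8% and 33.3% of all loci, and in pglp1 LC 2 higher and 1 lower, beside 26.8% and 32.9%. The shares in shm1 and pglp1 were near or below the background. In hpr1 LC 1 was called higher and 0 lower, beside 2.09% and 0.697% of all loci. The median log2 fold change of the 10 members was 1.65 in hpr1, −0.15 in shm1, 1.39 in glyk1 and 0.20 in pglp1, beside medians over all loci of 0.04, −0.04, −0.14 and −0.23.

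EDS1 and PAD4 form a complex that passes on immune receptor signals. PAD4 (chromosome 3, 19431095 to 19434450, plus strand, 2 exons) had 371 and 637 CPM in glyk1 LC, 223 and 76.5 in hpr1 LC, 70.7 and 77.0 in pglp1 LC and 16.5 and 21.3 in shm1 LC, against 60.0 and 29.1 CPM in wild-type LC. Glyk1 LC was the highest group and shm1 LC the lowest, and neither overlapped the wild type. The log2 fold change against the wild type was 3.55 ± 0.59 (SE) in glyk1 (adjusted p = 0.000163) and −1.28 ± 0.54 in shm1 (adjusted p = 0.0486). The shm1 call ended under 7 alternatives, among them RLE scaling (adjusted p = 0.0546), a replicate block (0.0733) and leaving out wild-type LC replicate 1 (−0.62, adjusted p = 0.39), shm1 LC replicate 1 (−1.07, 0.208) or shm1 LC replicate 2 (−1.44, 0.106). Hpr1 and pglp1 LC libraries also lay above the wild type, at log2 1.73 (adjusted p = 0.107) and 0.74 (adjusted p = 0.248), without passing. In RPKM, without TMM scaling, the pglp1 LC libraries lay within the wild-type range (25.0 and 28.6 against 38.6 and 17.9).

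EDS1 (chromosome 3, 17755329 to 17758147, minus strand, 4 exons) had 155 and 262 CPM in glyk1 LC, 208 and 47.3 in hpr1 LC, 48.6 and 42.6 in pglp1 LC and 33.5 and 35.1 in shm1 LC, against 40.3 and 30.4 CPM in wild-type LC. Only the glyk1 difference passed, at log2 2.60 ± 0.54 (adjusted p = 0.00102). The others were 1.84 ± 0.53 in hpr1 (adjusted p = 0.0797), 0.37 ± 0.51 in pglp1 (0.556) and −0.09 ± 0.51 in shm1 (0.883). Taken from the row where it matched the other libraries, the count of wild-type LC replicate 3 gave 48.1 CPM. Both glyk1 libraries lay above that value too, whereas hpr1 LC replicate 2 and pglp1 LC replicate 2 lay above the other wild-type LC libraries but below it. In RPKM, without TMM scaling, both pglp1 LC libraries lay below wild-type LC replicates 1 and 2 (15.6 and 14.4 against 23.6 and 17.1). EDS1 has a near copy, AT3G48080, whose coding sequence is 84.0% identical over 1859 aligned bases. Both coding sequences share 0 of 1773 windows of 100 bases.

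ICS1 (chromosome 1, 28070295 to 28074177, plus strand, 13 exons) encodes the isochorismate synthase that supplies most defence-related salicylic acid. It had 333 and 49.5 CPM in hpr1 LC, 55.9 and 60.0 in shm1 LC, 162 and 166 in glyk1 LC and 32.1 and 22.8 in pglp1 LC, against 32.2, 13.9 and 7.75 CPM in wild-type LC. The hpr1, shm1 and glyk1 libraries all lay above the wild type and the pglp1 libraries lay within its range. The log2 fold changes against the wild type were 3.40 ± 0.74 in hpr1 (adjusted p = 0.0242), 1.68 ± 0.71 in shm1 (0.0481), 3.19 ± 0.73 in glyk1 (0.00193) and 0.60 ± 0.72 in pglp1 (0.489).

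The ICS1 calls in hpr1 and shm1 depended on single libraries. In hpr1 the change was 1.34 (adjusted p = 0.392) without hpr1 LC replicate 1, the shallowest library, and the call also ended without wild-type LC replicate 2 (adjusted p = 0.0803) or 3 (0.0657). With wild-type LC replicate 1 left out 3 members were called in hpr1, and 4 with hpr1 LC replicate 2 left out. In shm1 it ended without wild-type LC replicate 2 (adjusted p = 0.12) or 3 (0.147) and without shm1 LC replicate 1 (0.108) or 2 (0.111), and also with rows as deposited (0.0581), without a filter (0.0702) or with a replicate block (0.0587). The hpr1 call ended on the compared groups alone (0.474). In glyk1 the call was kept under every alternative run. In order of group means ICS1 ran hpr1 LC (191 ± 201, SD), glyk1 LC (164 ± 2.85), shm1 LC (58.0 ± 2.89), hpr1 HC (29.9 ± 26.1), pglp1 LC (27.4 ± 6.6), wild-type LC (17.9 ± 12.7), wild-type HC (15.3 ± 7.68), glyk1 HC (14.3 ± 3.73), shm1 HC (13.3 ± 6.31) and pglp1 HC (10.3 ± 0.558 CPM). From hpr1 HC downward each neighbouring pair overlapped, and so did hpr1 LC and glyk1 LC.

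SARD1 and CBP60g are related transcription factors that act in parallel on ICS1. CBP60G (chromosome 5, 9475679 to 9478777, plus strand, 6 exons) had 165 and 58.1 CPM in hpr1 LC, 83.2 and 104 in shm1 LC, 197 and 359 in glyk1 LC and 78.4 and 61.0 in pglp1 LC, against 39.2, 9.85 and 22 CPM in wild-type LC. All 8 mutant libraries lay above the wild type in TMM-normalised CPM. In the deposited RPKM, which carries no TMM factor, the pglp1 libraries overlapped it (24.7 and 20.3 against 22.6, 5.45 and 10.2). The log2 fold changes were 2.22 ± 0.64 in hpr1 (adjusted p = 0.0766), 1.98 ± 0.63 in shm1 (0.0122), 3.55 ± 0.66 in glyk1 (0.000363) and 1.55 ± 0.63 in pglp1 (0.0454). The pglp1 call ended without wild-type LC replicate 2 (1.18, adjusted p = 0.136) or 3 (1.53, 0.081) and without pglp1 LC replicate 1 (1.37, 0.159) or 2 (1.75, 0.0693). It also ended with a replicate block (1.34, adjusted p = 0.107), with rows as deposited (0.0551) and without a filter (0.0625).

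SARD1 (chromosome 1, 27744790 to 27749248, minus strand, 7 exons) did not pass in any mutant against wild-type LC. It had 183 and 55.1 CPM in hpr1 LC, 29.8 and 26.6 in shm1 LC, 36.5 and 91.1 in glyk1 LC and 28.1 and 39.1 in pglp1 LC, against 50.0, 17.6 and 30.4 CPM in wild-type LC. The hpr1 libraries alone were both above the wild type (log2 1.86 ± 0.54, adjusted p = 0.0815). SARD1 overlaps AT1G73790 on the other strand over 640 bases, and the library kit does not mark strand, so reads of the overlap cannot be told apart. AT1G73790 itself stood at 1.53 to 8.98 CPM.

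NPR1 (chromosome 1, 23852748 to 23855658, minus strand, 4 exons), the salicylic acid receptor and co-activator, had 158 and 139 CPM in glyk1 LC, 101 and 103 in pglp1 LC, 54.7 and 73.1 in shm1 LC and 58.4 and 47.0 in hpr1 LC, against 38.3, 30.6 and 56.8 CPM in wild-type LC. The glyk1 and pglp1 libraries formed 2 separate levels above all others, while the shm1 and hpr1 ranges touched the wild type. The log2 fold changes were 1.82 ± 0.22 in glyk1 (adjusted p = 7.41e-06), 1.29 ± 0.22 in pglp1 (0.000127), 0.61 ± 0.22 in shm1 (0.0238) and 0.33 ± 0.22 in hpr1 (0.447). The shm1 call ended without wild-type LC replicate 1 (0.55, adjusted p = 0.064) or 2 (0.43, 0.0972) and without shm1 LC replicate 2 (0.45, 0.161), and on the compared groups alone (0.59, 0.191). NPR1 overlaps a pseudogene (AT1G64270, 38 bases) and a long non-coding RNA (AT1G08667, 214 bases) on the other strand, so a share of its reads could be theirs.

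NIMIN1 (chromosome 1, 497917 to 498539, minus strand, 1 exon) encodes a small protein that binds NPR1 and holds back PR1. It had 2.23 and 3.10 CPM in shm1 LC, 0.470 and 3.79 in pglp1 LC, 7.03 and 3.28 in glyk1 LC and 14.8 and 2.73 in hpr1 LC, against 15.9, 4.99 and 13.5 CPM in wild-type LC. The shm1 and pglp1 libraries lay below the wild type, and those of glyk1 and hpr1 overlapped it. The log2 fold changes were −2.12 ± 0.78 in shm1 (adjusted p = 0.0256) and −2.38 ± 0.84 in pglp1 (0.0232). Pglp1 LC replicate 1 held 4 reads of it. The shm1 call ended without wild-type LC replicate 1 (−1.81, adjusted p = 0.0646), shm1 LC replicate 1 (−1.89, 0.143) or 2 (−2.28, 0.0887), and the pglp1 call without wild-type LC replicate 1 (−2.06, 0.0596) or pglp1 LC replicate 1 (−1.60, 0.179) or on the compared groups alone (−2.29, 0.0721).

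The 3 output genes did not pass against wild-type LC in any mutant, and their replicates lay far apart. PR1 (chromosome 2, 6241640 to 6242541, minus strand, 1 exon), a secreted antimicrobial protein of the CAP family, had 771 and 199 CPM in hpr1 LC, 140 and 55.1 in shm1 LC, 1.01 and 531 in glyk1 LC and 0.470 and 115 in pglp1 LC, against 573, 2.57 and 18.1 CPM in wild-type LC. Each mutant range overlapped that of the wild type. PR2 (chromosome 3, 21188397 to 21189967, minus strand, 2 exons), a beta-1,3-glucanase, had 3190 and 1180 CPM in hpr1 LC, 1530 and 473 in shm1 LC, 281 and 2140 in glyk1 LC and 556 and 1120 in pglp1 LC, against 4650 and 131 CPM in wild-type LC.

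PR5 (chromosome 1, 28177670 to 28179022, plus strand, 2 exons), a thaumatin-like protein, had 2620 and 270 CPM in hpr1 LC, 716 and 283 in shm1 LC, 336 and 1130 in glyk1 LC and 53.5 and 177 in pglp1 LC, against 1290, 99.3 and 64.3 CPM in wild-type LC. The log2 fold changes of the 3 genes lay between −2.07 (PR5 in pglp1, adjusted p = 0.195) and 1.58 (PR5 in hpr1, adjusted p = 0.51). Wild-type LC replicate 1 was far above replicates 2 and 3 for PR1 and PR5, and above replicate 2 for PR2, and without it PR1 and PR2 in shm1 stood at log2 3.23 and 2.94, and PR1, PR2 and PR5 in pglp1 at 2.47, 2.67 and 0.50, with adjusted p from 0.146 to 0.72. The same wild-type library had the lowest mesophyll sum of its group (14100 CPM). The part of this in the PR values was not tested.

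**Figure D2:**
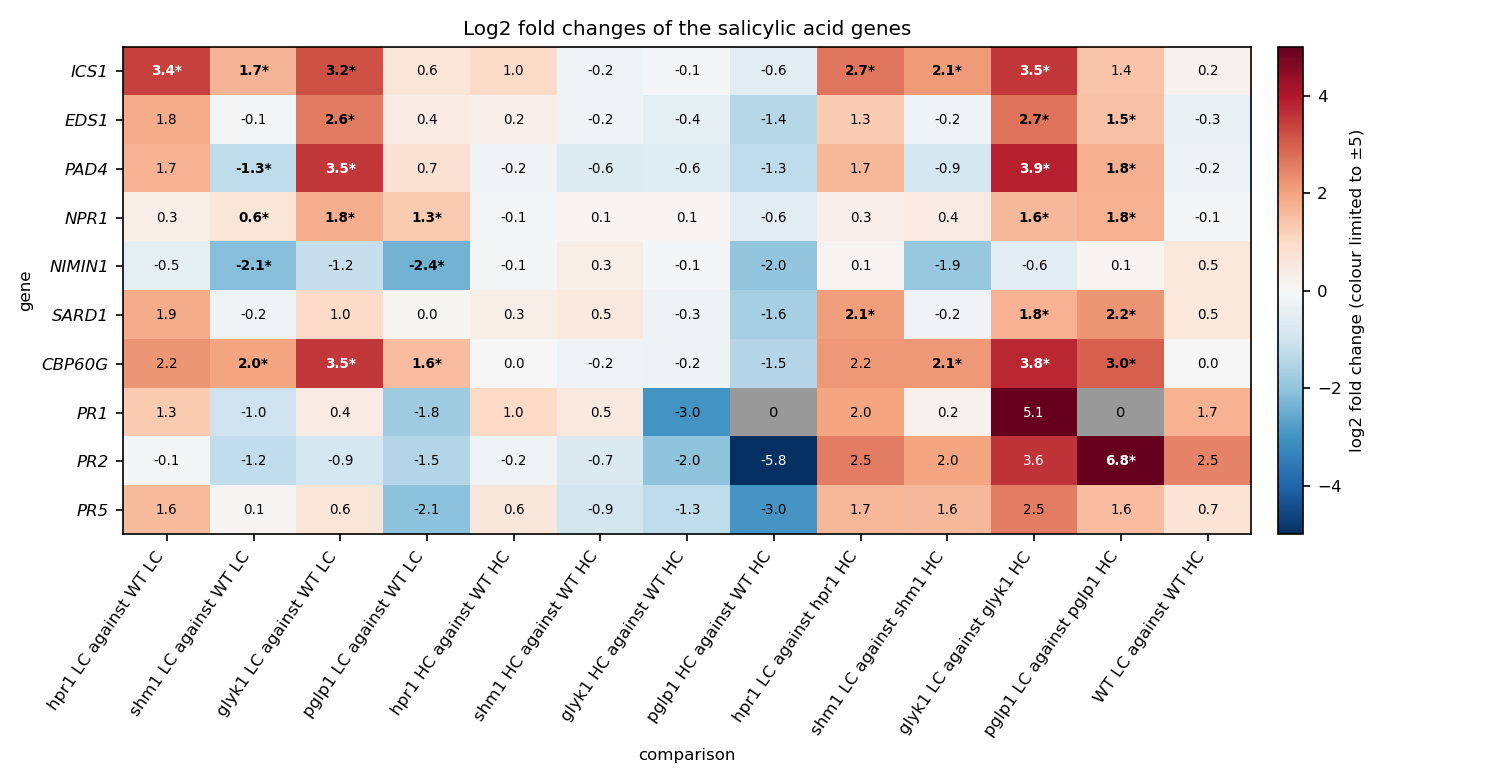
Log2 fold changes (colour and numbers) of the 10 genes against the wild type in LC and in HC, and LC against HC within each genotype; bold values with an asterisk passed an adjusted p under 0.05, and grey cells mark PR1 where pglp1 HC had 0 counts. Among the LC columns against the wild type, glyk1 and shm1 hold 5 called cells each, in either direction no more than the share over all loci. The HC columns against the wild type hold none. The PR rows hold 1 called cell, PR2 in pglp1 LC against pglp1 HC.

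Within the wild type no member passed the test between LC and HC. In wild-type LC against wild-type HC 0 of 10 members passed edgeR's quasi-likelihood test, 0 had an unadjusted p under 0.05 and DESeq2 called 0, beside 0.0196% of all loci called. The wild-type values in LC and HC overlapped for all members but EDS1, which had 40.3 and 30.4 CPM in LC against 54.6, 43.4 and 41.6 CPM in HC (log2 −0.33 ± 0.47, adjusted p = 0.898), and with the realigned LC value of 48.1 CPM EDS1 overlapped too. PR2 had the largest shift, 4650 and 131 CPM in LC against 740, 413 and 171 CPM in HC (log2 2.48 ± 1.27, adjusted p = 0.583). That shift became −1.77 when wild-type LC replicate 1 was left out.

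In each mutant some members were called higher in LC than in HC, in shm1 fewer than the share over all loci. Glyk1 and pglp1 each had 6 of 10 members called higher and 0 lower, beside 25.1% and 26.3% of all loci called higher. Hpr1 and shm1 each had 2 called higher and 0 lower, beside 8.71% and 32.9%. The median log2 fold change of the members was 3.12 in glyk1, 1.76 in pglp1, 1.83 in hpr1 and 0.31 in shm1, beside −0.16, −0.12, 0.07 and 0.02 over all loci.

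In glyk1 the members called were ICS1 (162 and 166 CPM in LC against 16.9 and 11.6 in HC, log2 3.53 ± 0.87, adjusted p = 0.00303), EDS1 (155 and 262 against 40.6 and 32.0, log2 2.71, adjusted p = 0.000757), PAD4 (371 and 637 against 38.4 and 38.7, log2 3.90, adjusted p = 8.94e-05), NPR1 (log2 1.62), SARD1 (36.5 and 91.1 against 18.5 and 19.4, log2 1.75, adjusted p = 0.0248) and CBP60G (197 and 359 against 21.8 and 19.1, log2 3.77). Each of the 6 was higher in both LC libraries than in both HC libraries. With rows as deposited EDS1 stood at 2.52 (adjusted p = 0.118). The SARD1 call ended without glyk1 LC replicate 2 (log2 0.94, adjusted p = 0.276), glyk1 HC replicate 1 (0.0804) or glyk1 HC replicate 2 (0.0963). PR1 stood at 1.01 and 531 CPM in LC against 10.9 and 4.47 CPM in HC, and its log2 fold change of 5.11 (adjusted p = 0.163) became −2.93 without glyk1 LC replicate 2. PR2 came close, at 281 and 2140 against 114 and 111 CPM (log2 3.63 ± 1.54, adjusted p = 0.0599).

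In pglp1 the members called were EDS1 (48.6 and 42.6 CPM in LC against 17.0 and 14.3 in HC, log2 1.48, adjusted p = 0.0281), PAD4 (70.7 and 77.0 against 22.4 and 18.9, log2 1.78, adjusted p = 0.0135), NPR1 (101 and 103 against 29.3 and 31.5, log2 1.75, adjusted p = 3.41e-05), SARD1 (28.1 and 39.1 against 7.11 and 7.36, log2 2.22, adjusted p = 0.00878), CBP60G (78.4 and 61.0 against 9.25 and 8.27, log2 2.99, adjusted p = 0.00388) and PR2 (556 and 1120 against 7.59 and 6.93, log2 6.79 ± 1.8, adjusted p = 0.00552). ICS1 was not among them, at 32.1 and 22.8 CPM in LC against 10.7 and 9.92 CPM in HC (log2 1.41 ± 0.82, adjusted p = 0.16). PR1 had 0 reads in both pglp1 HC libraries and 4 and 1332 reads in the LC libraries. Over the group this is at least 643-fold higher in LC, from a floor of 3 reads that covers counting error only. The bound was 4.55-fold without pglp1 LC replicate 2, 1110-fold without pglp1 LC replicate 1, and 415- and 227-fold without pglp1 HC replicate 1 and 2. The fitted change did not pass (adjusted p = 0.0688).

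The count in pglp1 depended on single libraries. Without pglp1 HC replicate 2, 2 of the 6 calls were kept, and EDS1, PAD4, SARD1 and PR2 stood at adjusted p = 0.143, 0.0905, 0.0599 and 0.051. EDS1 was also lost without pglp1 HC replicate 1 (0.0755) or pglp1 LC replicate 1 (0.0809) or with rows as deposited (0.333), and SARD1 without pglp1 HC replicate 1 (0.0538).

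In hpr1 ICS1 (333 and 49.5 CPM in LC against 11.4 and 48.4 in HC, log2 2.68 ± 0.84, adjusted p = 0.0437) and SARD1 (183 and 55.1 against 18.4 and 37.4, log2 2.09 ± 0.62, adjusted p = 0.0377) passed. Hpr1 LC replicate 1 was high and hpr1 HC replicate 1 low for both genes, while LC replicate 2 and HC replicate 2 stood close to each other for ICS1. Without hpr1 LC replicate 1 they stood at log2 0.60 (adjusted p = 0.627) and 0.85 (0.36). Both calls also ended without hpr1 HC replicate 1 (0.295 and 0.272) or 2 (0.0548 and 0.07), with rows as deposited (0.0649 and 0.0578) and on the compared groups alone (0.179 and 0.118). The ICS1 call in hpr1 ended with a replicate block (2.34, adjusted p = 0.052) and without a filter (0.0656). Without hpr1 LC replicate 2, 4 members were called, EDS1 and PAD4 besides these. In shm1 ICS1 (55.9 and 60.0 CPM in LC against 17.8 and 8.87 in HC, log2 2.12 ± 0.82, adjusted p = 0.0334) and CBP60G (83.2 and 104 against 28.3 and 13.8, log2 2.15 ± 0.73, adjusted p = 0.0171) passed. The ICS1 call in shm1 ended without any 1 of the 4 shm1 libraries (adjusted p from 0.0564 to 0.196) or without a filter (0.0502), and the CBP60G call without shm1 HC replicate 2 (1.72, 0.136).

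Whether a mutant's response differed from that of the wild type was tested as an interaction (mutant LC over HC, minus wild-type LC over HC). In glyk1 5 of 10 members were called higher and 0 lower, beside 18.6% of all loci called higher. They were PAD4 (log2 difference 4.14 ± 0.76, adjusted p = 0.000797), CBP60G (3.80 ± 0.93, 0.00505), ICS1 (3.29 ± 1.05, 0.0214), EDS1 (3.05 ± 0.71, 0.00408) and NPR1 (1.73 ± 0.32, 0.000643). In pglp1 3 were called higher and 0 lower, beside 20.5%: CBP60G (3.02 ± 0.94, adjusted p = 0.0176), PAD4 (2.02 ± 0.74, 0.0402) and NPR1 (1.86 ± 0.32, 0.000295). The ICS1 call in glyk1 ended without wild-type HC replicate 1 (2.81, 0.0505) or glyk1 HC replicate 1 (3.71, 0.0512) or 2 (3.05, 0.0946). In pglp1 the CBP60G call ended without pglp1 HC replicate 1 (0.0577) or 2 (0.0781) or pglp1 LC replicate 1 (0.0585). The PAD4 call in pglp1 ended without wild-type HC replicate 1 (0.0703), wild-type LC replicate 2 (0.137) or any 1 of the 4 pglp1 libraries (0.0625 to 0.123), and also with a replicate block (2.11, 0.0507). With rows as deposited, displaced counts included, PAD4 in pglp1 stood at 1.13 (0.358) and EDS1 in glyk1 at 3.51 (0.106). Without wild-type LC replicate 1, 6 members were called in pglp1.

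In hpr1 0 of 10 members passed this test with edgeR's quasi-likelihood test, 4 had an unadjusted p under 0.05 and DESeq2 called 0, beside 0.113% of all loci called. In shm1 0 passed, 2 had an unadjusted p under 0.05 and DESeq2 called 2 (NIMIN1 lower and CBP60G higher), beside 53.6% of all loci. Without wild-type LC replicate 1, 2 members passed in shm1, CBP60G (2.76, adjusted p = 0.0206) and ICS1 (2.63, adjusted p = 0.0429).

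In high CO2 none of the mutants had a member that passed. In hpr1, shm1 and glyk1 HC against wild-type HC 0 of 10 members passed edgeR's quasi-likelihood test, 0 had an unadjusted p under 0.05 and DESeq2 called 0, beside 0.00491%, 0.0196% and 0.00491% of all loci called. In pglp1 HC 0 passed, but 8 had an unadjusted p under 0.05 and DESeq2 called 2 (EDS1 and PR2, both lower), beside 4.05% of all loci called by edgeR. A fit on the compared groups alone called 4, EDS1, NIMIN1, PR2 and PR5, all lower. The median log2 fold change of the members in pglp1 HC was −1.56, beside −0.15 over all loci, and all members but ICS1 had both pglp1 HC libraries below all wild-type HC libraries. The share of all loci with ranges apart in that way was not measured. The 4.05% is no background for the unadjusted p, DESeq2 or compared-groups counts.

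The low values of pglp1 HC were close between its replicates. PR2 had 7.59 and 6.93 CPM in pglp1 HC against 740, 413 and 171 CPM in wild-type HC (log2 −5.77 ± 1.69, adjusted p = 0.0689). PR5 had 32.7 and 46.0 CPM against 447, 305 and 161 CPM (log2 −2.95 ± 1.41, adjusted p = 0.238). PR1 had 0 reads in both pglp1 HC libraries against 147, 6.21 and 27.2 CPM in wild-type HC, over the group at least 774-fold lower in pglp1 from the floor of 3 reads (fitted adjusted p = 0.198). That bound was 104-fold without wild-type HC replicate 1, 1220-fold without wild-type HC replicate 2, and 500- and 274-fold without pglp1 HC replicate 1 and 2. EDS1 (17.0 and 14.3 against 54.6, 43.4 and 41.6 CPM, log2 −1.44, adjusted p = 0.109), SARD1 (7.11 and 7.36 against 34.4, 22.4 and 11.1 CPM, log2 −1.65, adjusted p = 0.123) and NIMIN1 (2.24 and 1.92 against 7.51, 9.94 and 6.68 CPM, log2 −1.96, adjusted p = 0.178) lay lower in the same way without passing. ICS1 overlapped, at 10.7 and 9.92 CPM against 23.9, 12.5 and 9.33 CPM (adjusted p = 0.709). The pglp1 HC group was the lowest of all 10 groups in mean for every member but PAD4, which was lower still in shm1 LC. How many of all loci were lowest in that group was not measured.

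The mutants differed among themselves in low CO2 most clearly in PAD4. It was higher in glyk1 than in shm1 by log2 4.83 ± 0.62 (adjusted p = 6.46e-05) and than in hpr1 by 1.82 ± 0.55 (adjusted p = 0.0168), lower in pglp1 than in glyk1 by a log2 fold change of −2.81 ± 0.57 (0.00122), lower in shm1 than in hpr1 (−3.01 ± 0.57, 0.000529) and higher in pglp1 than in shm1 (2.02 ± 0.55, 0.00648). NPR1 was higher in glyk1 than in hpr1 (log2 1.5 ± 0.25, adjusted p = 0.000329) and shm1 (1.22 ± 0.25, 0.00144), and higher in pglp1 than in hpr1 (0.96 ± 0.25, 0.00431) and shm1 (0.68 ± 0.25, 0.0287). PR1, PR2, PR5 and NIMIN1 did not pass between any pair of mutants in LC.

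By pair, glyk1 against shm1 had 3 members called higher (EDS1 at log2 2.69, PAD4 and NPR1), beside 19.2% of all loci, and glyk1 against hpr1 had 2 (PAD4 and NPR1), beside 18.4%. Pglp1 against glyk1 had 4 called lower (ICS1 at −2.58, EDS1 at −2.23, PAD4 and CBP60G at −2.00), beside 24.5%. Pglp1 against hpr1 had 1 called higher (NPR1), beside 22.7%, and 3 lower (ICS1 at −2.80, EDS1 at −1.47 and SARD1 at −1.82), beside 29.6%. Pglp1 against shm1 had 2 called higher (PAD4 and NPR1), beside 24.1%, and shm1 against hpr1 had 3 called lower (EDS1 at −1.93, PAD4 and SARD1 at −2.07), beside 28.4%. Except for glyk1 against shm1 and pglp1 against glyk1, these counts were near or below the shares over all loci. Each share is for the direction in which members were called, known only after the calls. Shares in either direction were not compared for these pairs, so the 2 exceptions are not read as an excess. Without hpr1 LC replicate 1 the EDS1, SARD1 and ICS1 differences from hpr1 stood between −0.84 and −0.07 and none passed (adjusted p from 0.257 to 0.906). The glyk1 excess of PAD4 over hpr1 ended without hpr1 LC replicate 2 (1.19, 0.177) or glyk1 LC replicate 2 (1.36, 0.109). NPR1 in pglp1 against hpr1 ended without hpr1 LC replicate 2 (0.0539), and in pglp1 against shm1 without shm1 LC replicate 1 (0.205) or either pglp1 LC library (0.055 and 0.052). PAD4 in pglp1 against shm1 ended without shm1 LC replicate 1 (0.0596), and SARD1 in shm1 against hpr1 also without either shm1 LC library (0.0506 and 0.0753). In pglp1 against hpr1, ICS1, EDS1 and SARD1 also ended without either pglp1 LC library (adjusted p from 0.0505 to 0.152). In pglp1 against glyk1, ICS1 and CBP60G ended without glyk1 LC replicate 2 (0.0568 and 0.186) or either pglp1 LC library (0.0745 to 0.146), and CBP60G without a filter (0.0503). On the compared groups alone EDS1, ICS1 and SARD1 in pglp1 against hpr1, EDS1 in shm1 against hpr1 and PAD4 in glyk1 against hpr1 did not pass (adjusted p from 0.0683 to 0.165). With rows as deposited PAD4 in glyk1 against hpr1 (0.0748) and the 4 EDS1 differences between mutants (0.138 to 0.354) did not pass.

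In TMM-normalised CPM, replicates of a mutant group that differed in PR1 differed in the same direction in PR2 and PR5. In 7 mutant groups the replicates differed in PR1, and the library with more PR1 also had more PR2 in 7 of 7 and more PR5 in 7 of 7. It had more SARD1 in 6 of 7 and more of each of ICS1, EDS1, PAD4, NPR1, NIMIN1 and CBP60G in 5 of 7. In glyk1 HC, PR2 differed little between replicates 1 and 2 (114 and 111 CPM). In RPKM, without TMM scaling, their order was reversed (85.8 and 86.4). The share of all loci that went with PR1 in these pairs was not measured. Among pairs of wild-type libraries the library with more PR1 had more PR5 in 2 of 3 pairs in LC and 2 of 3 in HC, and more PR2 in 2 of 3 pairs in HC and in the 1 pair with both values in LC. In wild-type HC, replicate 2 had less PR1 than replicate 3 (6.21 against 27.2 CPM) but more PR2 (413 against 171 CPM). In glyk1 LC, PR1 stood at 531 CPM in replicate 2 and 1.01 CPM in replicate 1, and PR2 at 2140 and 281 CPM, whereas ICS1 stood at 166 and 162 CPM. In shm1 HC, PR1 stood at 163 CPM in replicate 1 and 4.90 in replicate 2, and PR5 at 284 and 35.7 CPM, while NPR1 stood at 48.9 and 48.0 CPM. The replicate that was high was not the same number in all groups. These are descriptions of pairs of libraries, with no test.

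**Figure D3:**
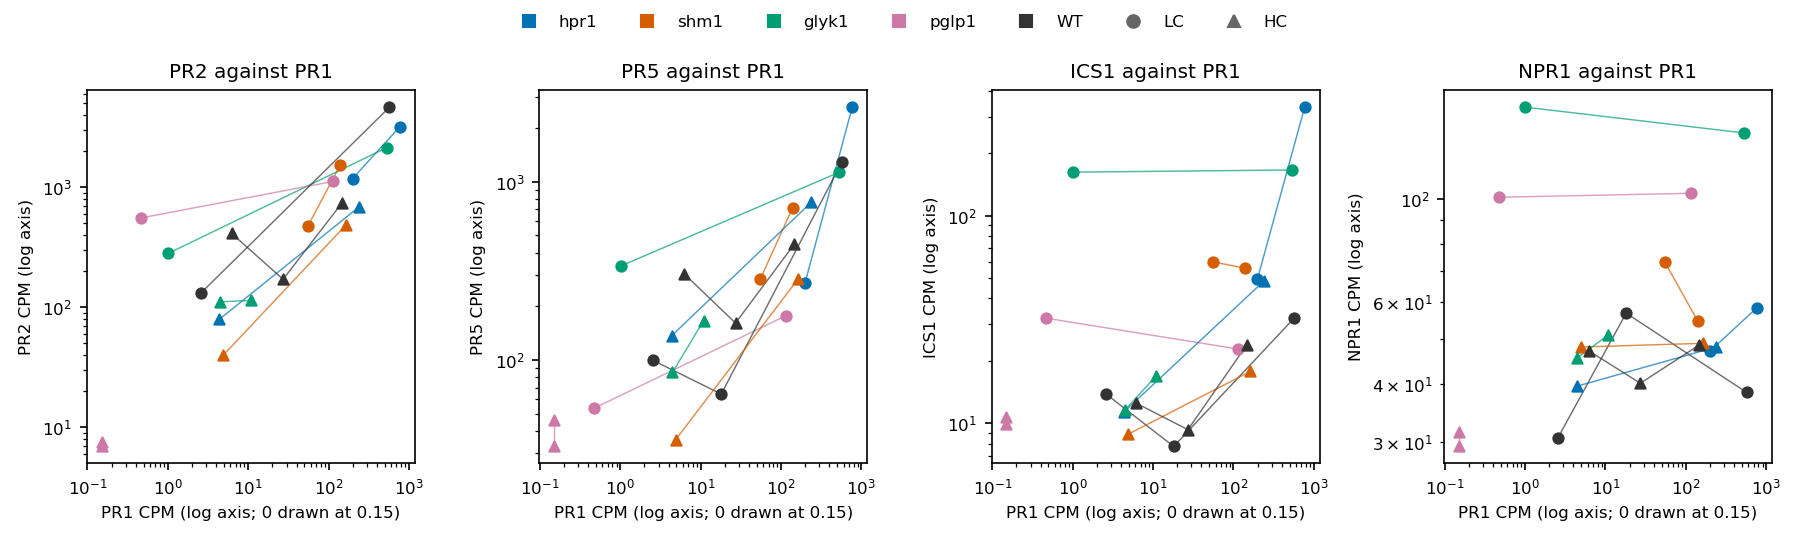
CPM of PR2, PR5, ICS1 and NPR1 (log axes) against CPM of PR1 (log axis, 0 drawn at 0.15) in each library, with libraries of a group joined by a line, circles for LC and triangles for HC. The lines rise for PR2 and PR5 in all 7 mutant groups whose libraries differ in PR1, though for PR2 in glyk1 HC only from 111 to 114 CPM. That of glyk1 LC is flat for ICS1, 166 CPM against 162 CPM.

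Other genes of salicylic acid synthesis, perception, modification and response were described from a list of 55, of which 54 were in the table and tested. Against wild-type LC, 27 were called higher and 9 lower in shm1, 25 and 8 in glyk1, 17 and 14 in pglp1 and 3 and 0 in hpr1. Of all loci, 32.8% were called higher and 33.3% lower in shm1, 26.5% and 29.3% in glyk1, 26.8% and 32.9% in pglp1 and 2.09% and 0.697% in hpr1, and the role counts that follow stand beside the same shares. The pglp1 counts were near that background. The medians of the list were log2 1.1, 1.28, 0.51 and 0.61, beside −0.04, −0.14, −0.23 and 0.04 over all loci. In wild-type LC against HC 0 of 54 passed edgeR's quasi-likelihood test, 2 had an unadjusted p under 0.05 and DESeq2 called 1. In hpr1, leaving out single libraries gave 1 call (hpr1 LC replicate 1 or wild-type LC replicate 2), 7 calls (hpr1 LC replicate 2) or 12 calls (wild-type LC replicate 1).

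Of the other synthesis genes, EDS5, the chloroplast transporter that exports isochorismate, and PBS3, which conjugates it to glutamate, passed in glyk1 and shm1. EDS5 had 120 and 152 CPM in glyk1 LC, 111 and 100 in shm1 LC, 180 and 27.4 in hpr1 LC and 30.2 and 12.8 in pglp1 LC, against 35.3, 5.83 and 4.93 CPM in wild-type LC, and passed in glyk1 (log2 3.13, adjusted p = 0.0112) and shm1 (2.77, 0.0168). PBS3 had 295 and 437 CPM in glyk1 LC, 125 and 132 in shm1 LC, 222 and 22.5 in hpr1 LC and 25.0 and 36.3 in pglp1 LC, against 24.3, 5.27 and 3.84 CPM in wild-type LC, and passed in glyk1 (log2 5.02, adjusted p = 0.00106) and shm1 (3.51, 0.00646). EPS1, which releases salicylic acid from that conjugate, fell in glyk1 (log2 −1.27, adjusted p = 0.024) and pglp1 (−2.67, adjusted p = 0.000664). Over all 8 synthesis genes of the list, 5 were higher and 2 lower in glyk1, 2 and 2 in shm1, 0 and 2 in pglp1 and 0 and 0 in hpr1. The counts in shm1 and pglp1 were no higher than the share over all loci.

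A group of 7 other immune signalling genes was listed: SAG101, NDR1, ADR1, ADR1-L1, ADR1-L2, NRG1.1 and NRG1.2. In glyk1 7 of 7 were called higher, beside 26.5% of all loci. SAG101, the alternative partner of EDS1, had 130 and 194 CPM in glyk1 LC against 27.1, 14.1 and 25.5 CPM in wild-type LC (log2 2.86, adjusted p = 1.56e-05). The helper receptor ADR1 had 32.5 and 37.4 against 22.1, 8.60 and 16.4 CPM (log2 1.15, adjusted p = 0.0046). In shm1, where PAD4 was lower, 5 of 7 were higher and 1 lower (32.8% and 33.3% of all loci), among them SAG101 (log2 1.04, adjusted p = 0.0201) and ADR1 (1.40, 0.000772). ALD1 and FMO1, which make pipecolic acid and its N-hydroxylated form, the partner signal in systemic immunity, were highest in shm1 LC. ALD1 had 146 and 174 CPM in shm1 LC against 5.16, 0.486 and 0.918 CPM in wild-type LC (log2 6.10 ± 1.67, adjusted p = 0.00512), and FMO1 had 155 and 165 against 2.66, 0 and 0.172 CPM (log2 7.19 ± 2.07, adjusted p = 0.00642). Against wild-type LC neither passed in glyk1, pglp1 or hpr1, and neither passed between shm1 LC and another mutant in LC. Between LC and HC both were called higher in shm1, FMO1 also in glyk1 and ALD1 also in pglp1. The same calls were made for the response minus that of the wild type.

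The receptors NPR3 and NPR4 are relatives of NPR1 that act as co-repressors. NPR3 passed in all 4 mutants, with 108 and 63.2 CPM in hpr1 LC, 204 and 264 in shm1 LC, 300 and 243 in glyk1 LC and 305 and 218 in pglp1 LC, against 39.9, 23.0 and 36.0 CPM in wild-type LC. Its log2 fold changes were 1.37 (adjusted p = 0.0236), 2.83 (1.54e-06), 3.04 (1.26e-06) and 2.99 (8.93e-07) in that order, and every mutant library lay above the wild type. NPR4 was higher in shm1 (log2 1.30, adjusted p = 0.00055) and pglp1 (1.43, 0.000309). At 40.2 and 23.3 CPM in glyk1 LC against 40.5, 33.6 and 60.0 CPM in wild-type LC, NPR4 did not pass there. WRKY70 and WRKY54 act downstream of NPR1 and restrain synthesis. WRKY70 did not pass in any mutant (log2 −1.51 to 1.13). The WRKY54 row was listed at 0 in wild-type LC replicate 3, against 109 and 62.3 CPM in the other wild-type LC libraries, and in that library the row before it held 1995 reads, against at most 2 in the other 21 libraries, so the 0 is doubtful. With it, WRKY54 did not pass in any mutant (log2 −1.01 to 0.21). Without that library, a choice made after seeing the data, it stood at −1.63 in shm1 (adjusted p = 0.0242), which passed, −1.02 in pglp1 (0.143), −0.40 in hpr1 (0.769) and −0.36 in glyk1 (0.618).

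Among genes of the list called against wild-type LC, the largest change was that of a modifying enzyme, SOT12 in pglp1. UGT74F2, a salicylic acid glucosyltransferase, had 88.0 and 109 CPM in hpr1 LC, 1000 and 1480 in shm1 LC, 449 and 114 in glyk1 LC and 1130 and 1990 in pglp1 LC, against 12.7, 10.8 and 19.1 CPM in wild-type LC. It passed in all 4 mutants, at log2 2.79 (adjusted p = 0.00612), 6.45 (1.42e-07), 4.31 (3.42e-06) and 6.78 (7.36e-08). SOT12, a sulfotransferase gene named after its values were seen, passed in all 4 as well (log2 3.28, 5.87, 6.24 and 8.56). UGT76B1, which glucosylates N-hydroxypipecolic acid and salicylic acid, had 516 and 881 CPM in shm1 LC, 322 and 18.0 in glyk1 LC and 89.5 and 282 in pglp1 LC, against 7.24 and 0 CPM in wild-type LC, and passed in these 3 (log2 7.50, 5.54 and 5.64). Against wild-type LC the methyltransferase BSMT1 passed in pglp1 alone (4.94 and 15.8 against 0.585 and 0 CPM, log2 4.92 ± 1.72, adjusted p = 0.0258). Between LC and HC, BSMT1 was called higher in all 4 mutants, each with 0 or 1 reads of it over the HC group. Its response minus that of the wild type passed in shm1 and not in pglp1. The hydroxylases DMR6 and DLO1, which break salicylic acid down, did not pass against wild-type LC in any mutant. DMR6 was lower in pglp1 HC (10.9 and 11.7 CPM against 183, 119 and 69.4 CPM in wild-type HC, log2 −3.45 ± 0.68, adjusted p = 0.0143). It was called higher in pglp1 LC than in pglp1 HC, and in the pglp1 response minus that of the wild type.

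Among 7 other output genes, 1 was higher and 4 lower in glyk1, 1 and 5 in pglp1, 2 and 3 in shm1 and 0 and 0 in hpr1, where 29.3%, 32.9%, 33.3% and 0.697% of all loci were called lower. Their medians were log2 −2.42, −2.70, −2.14 and 0.39, beside −0.14, −0.23, −0.04 and 0.04 over all loci. The shm1 count was near the background. Named after their values were seen, PCC1, ACD6 and AED1 were lower in shm1, glyk1 and pglp1 LC (log2 −4.99 to −2.32 over the 9 values), and the glutaredoxin gene GRX480 was higher in the same 3.

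**Figure D4:**
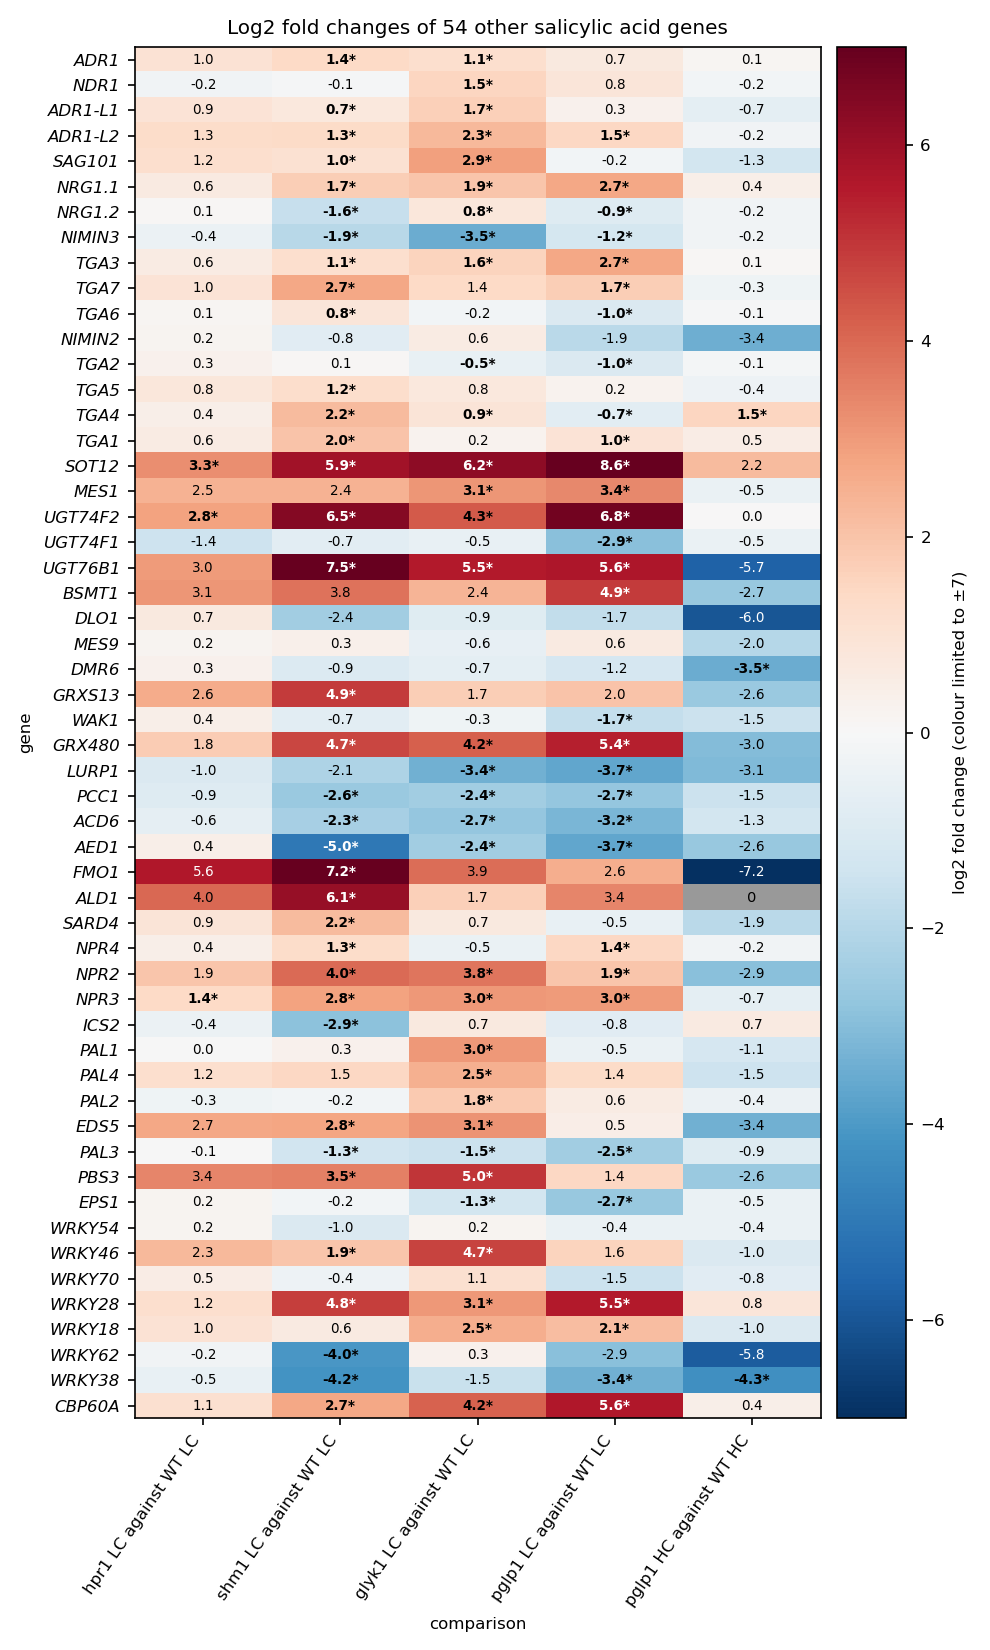
Log2 fold changes (colour and numbers) of 54 other salicylic acid genes in each mutant in LC against wild-type LC and in pglp1 HC against wild-type HC, sorted by role; bold values with an asterisk passed an adjusted p under 0.05, and the grey cell marks ALD1, which had 0 counts in pglp1 HC. NPR3, UGT74F2 and SOT12 carry an asterisk in all 4 LC columns.

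The loci whose mean log2(CPM + 0.5) over the 10 groups was most like that of ICS1 were AT1G72240 (Pearson r 0.981 over 10 groups), AT1G11362 (0.960), PUB54 (AT1G01680, 0.959), AT5G40000 (0.958) and AT1G65481 (0.953). Those most like PR1 were XIA (AT1G04600, 0.976), AT4G10500, which is the salicylic acid hydroxylase DLO1 (0.940), RLP41 (AT3G25010, 0.917), AT5G09290 (0.913) and RLP23 (AT2G32680, 0.906). These values describe the 10 group means, which share libraries and depth between genes. No locus was named for both.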

How the data were processed

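Polyadenylated leaf RNA was sequenced, per the labels' protocols, in single-end or paired-end mode on different HiSeq models; the mode of each library is not stated, so it was not used as a batch. Per the submitters' processing notes CASAVA 1.8, edgeR and the TAIR9 and TAIR10 builds were used, and the aligner's name (not given in the sources used here) is left out. The deposited table has, per the file headers, a column of read counts and a column of RPKM for each library. Counts entered all tests. The deposited RPKM served to compare levels between genes and, for CBP60G, PAD4 and EDS1 in pglp1 LC and PR2 in glyk1 HC, as values without TMM scaling. The 10 genes and the lists were chosen with earlier results of these data known.

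In wild-type LC replicate 3, 5006 rows (19.5%) in 4 blocks carry counts of nearby rows. They were found by correlating windows of 21 rows at shifts of up to 10 rows (r at least 0.8 and gained by at least 0.3) and were treated as missing, a choice made after they were seen. The cells of EDS1, PAD4 and PR2 matched the other libraries 4 rows further on (r 0.985, 0.838 and 0.974), and the other 7 members matched in place (r 0.968 to 0.984).

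Counts were tested with edgeR 4.0.16 in R 4.3.3 (TMM, filterByExpr, robust quasi-likelihood F test, 10 group means), on 16688 loci in 22 libraries and 3682 loci in 21, with Benjamini-Hochberg adjustment over all 20370 loci and a threshold of 0.05. Errors of log2 fold changes are SE, and CPM are TMM-normalised. The TMM factors were 0.684 and 0.723 in pglp1 LC, against 1.25, 1.20 and 1.01 in wild-type LC. The edgeR test was also run on simulated counts, for pglp1 LC against wild-type LC only and with the same spread set for all loci. That setting differs from the uneven replicates of genes such as PR1. Alternatives were DESeq2 1.42.0, RLE scaling, no filter, the compared groups alone, rows as deposited, realigned rows, a replicate block and leaving out each library. Deviations from the group means in wild-type LC and HC libraries of the same number had r 0.468, 0.167 and 0.425, and the labels name no pairing. Depth ran from 5.91 to 194 M counts (1e6). The p-values reflect spread among the libraries only, and bounds from 3 counts cover counting error only. All 10 genes were named in every comparison, 16 other salicylic acid genes were named by a fixed list, and for ICS1 and PR1 the 5 loci most alike by Pearson r of mean log2 CPM over 10 groups.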

Additional observations from a re-analysis of the deposited data

Results flagged for a closer look

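The LC response differed between a mutant and the wild type, by a test of the difference itself, for 8 values. In glyk1 the response minus that of the wild type was log2 4.14 for PAD4, 3.80 for CBP60G, 3.29 for ICS1, 3.05 for EDS1 and 1.73 for NPR1. In pglp1 it was 3.02 for CBP60G, 2.02 for PAD4 and 1.86 for NPR1. All comparisons share the wild-type libraries.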

How the results depend on the processing

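With glyk1, the counts of members called stayed within 1.5 times under every alternative run (5 to 8 for LC against HC, 5 to 6 for LC against wild-type LC, 4 to 6 for the response minus that of the wild type). For hpr1 LC against HC the count of 2 became 0 with rows as deposited, 1 without a filter, 4 with DESeq2, 0 on the compared groups alone and 0 to 4 with a library left out. For shm1 LC against HC the count of 2 became 1 without a filter and 0 to 1 with a library left out, and for pglp1 LC against HC the count of 6 ran from 2 (without pglp1 HC replicate 2) to 6 with a library left out. Pglp1 HC against wild-type HC had 0, 2 with DESeq2 and 4 on the compared groups alone. Hpr1 LC against wild-type LC had 1, 5 with DESeq2, 0 on the compared groups alone and 0 to 4 with a library left out. Shm1 LC against wild-type LC had 5, 3 without a filter, 3 on the compared groups alone and 1 to 4 with a library left out, and pglp1 LC 3, and 1 to 2 with a library left out. For the response minus that of the wild type, shm1 had 0, 2 with DESeq2, 1 on the compared groups alone and 0 to 2 with a library left out, and pglp1 had 3, 5 with DESeq2 and 1 to 6 with a library left out. The causes were not tested.

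With a replicate block the count was 1 for hpr1 LC against HC and 3 for shm1 LC against wild-type LC (ICS1 and PAD4 lost), 2 for pglp1 LC against wild-type LC (CBP60G lost) and 2 for the pglp1 response (PAD4 lost), and ICS1 in hpr1 LC against HC stood at 2.34 (adjusted p = 0.052). It changed no other call against the wild type or between LC and HC. The labels do not say that wild-type libraries of the same number are paired, and their r between LC and HC was 0.468, 0.167 and 0.425. In the mutants too the libraries share only a number (r −0.528 to 0.34 over 28 pairs of groups).

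Of 1483 values of single members under an alternative, 18 changed sign, all with 1 library left out. These values cover only changes that were called or, except between mutants, at least log2 1 in size. Sign changes of smaller changes that were not called were not counted. With single libraries left out, wild-type LC against HC ran from −2.54 to 3.58 for PR1 and from −1.77 to 3.43 for PR2, and hpr1 LC against HC from −0.19 to 1.93 for EDS1 and from −0.87 to 3.37 for PR5. PR1 ran from −2.93 to 6.31 in glyk1 LC against HC and from −3.65 to 2.87 in hpr1 HC against wild-type HC. Against wild-type LC, hpr1 ran from −0.07 to 5.54 (PR1) and −0.93 to 4.14 (PR5), shm1 from −1.84 to 3.23 (PR1) and −2.33 to 2.94 (PR2), and pglp1 from −8.65 to 2.47 (PR1), −2.43 to 2.67 (PR2) and −3.13 to 0.50 (PR5). For the response minus that of the wild type, PR5 ran from −1.57 to 3.57 in hpr1, PR1 from −3.36 to 2.75 in shm1 (2.61 without shm1 HC replicate 1), and PR1 from −4.65 to 7.65 and PR2 from −0.99 to 5.19 in glyk1. The sign changes came without wild-type LC replicate 1, hpr1 LC replicate 1, hpr1 HC replicate 2, glyk1 LC replicate 2 or shm1 HC replicate 1. RLE scaling moved the median of all loci in glyk1 LC against HC to 0.02, from −0.16 with TMM. With 2 libraries per mutant and the shallowest at 5.91 M counts (1e6), precision was limited by depth and number, and the power for small changes was not measured.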
